A study of Drosophila melanogaster with 3 samples.

Results

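Peaks of the zinc finger protein CG2712 were described at 8 genes of neural stem cell identity and asymmetric cell division in Drosophila melanogaster: dpn, ase, wor, insc, mira, pros, brat and msi. The genes were taken by their symbols in Ensembl release 115, out of 13968 protein-coding genes, by a rule that uses no measured value, although the set was proposed with earlier results of these data known. Every peak summit was collected that lay within 500 bp of an annotated start of a member, in its body or within 5 kb of either end. These regions held 32 of the 9789 summits of the list that passed a threshold on the irreproducible discovery rate (IDR), which scores how far peaks keep their order from replicate to replicate, and 99 of the 30000 summits of the list called on all replicates together (the pooled list). They held 90, 96 and 100 summits in the lists of replicates 1, 2 and 3, of 30000 each.

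Neuroblasts, the neural stem cells of the fly, divide unequally. One daughter keeps stem cell identity while the other, the ganglion mother cell, goes on to form neurons or glia. A polarity complex at the apical side, which Inscuteable (insc) joins to the machinery that orients the spindle, drives fate determinants to the basal side, where the adaptor Miranda (mira) holds the homeodomain protein Prospero (pros) and the translational repressor Brain tumor (brat) until they pass into the ganglion mother cell. Deadpan (dpn), a repressor of the Hairy and Enhancer of split type, Asense (ase), a basic helix-loop-helix factor of the achaete-scute complex, and Worniu (wor), a zinc finger factor of the Snail family, are transcription factors of the neuroblast itself. Musashi (msi) is an RNA-binding protein known for its part in the unequal divisions that form sensory organs.

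The samples were 3 biological replicates of 1 group: whole embryos of both sexes, 0 to 16 hours old, from a transgenic line with green fluorescent protein (GFP) at the C terminus of CG2712. Chromatin immunoprecipitation with an antibody against GFP was followed by sequencing (ChIP-seq), and all 3 replicates carried the same labelled line. Neuroblasts are one of many cell types in such embryos, so a summit marks DNA found with the tagged protein somewhere in the collection and cannot be placed in neuroblasts; no expression was measured. There was no second condition, so no test between groups was possible, and the values below are the authors' signal (the enrichment their caller gave a peak) and the rank by signal within a list, where rank 1 is the strongest peak. Signal runs on a scale of its own in each list, so replicates are compared by rank. No read totals were at hand, and the depth of each list is not known.

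CG2712 summits at the stronger places lay in short, A- and T-rich stretches. The sequences below are the bases within 50 bp of the summit, shown because they carry the strongest summits near msi, brat and ase, the strongest one inside pros and the start summits of mira and pros, with every run of 5 or more A or T bases in capitals.
msi, upstream of the first start, IDR rank 25 (dm6, chr3R:25515839-25515939, plus strand): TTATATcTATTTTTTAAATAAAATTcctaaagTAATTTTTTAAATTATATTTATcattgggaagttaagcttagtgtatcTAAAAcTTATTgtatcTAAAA
brat, intron, IDR rank 156 (dm6, chr2L:19165100-19165200, plus strand): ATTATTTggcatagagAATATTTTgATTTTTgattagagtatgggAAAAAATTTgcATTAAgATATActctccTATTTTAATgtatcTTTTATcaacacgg
pros, intron, IDR rank 1400 (dm6, chr3R:11368866-11368966, plus strand): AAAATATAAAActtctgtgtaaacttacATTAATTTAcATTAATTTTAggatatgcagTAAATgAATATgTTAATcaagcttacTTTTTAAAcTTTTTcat
ase, upstream, IDR rank 1754 (dm6, chrX:457952-458052, plus strand): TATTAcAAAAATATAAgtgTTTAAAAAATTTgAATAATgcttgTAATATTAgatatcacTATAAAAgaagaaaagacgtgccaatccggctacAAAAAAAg
mira, upstream of the start, IDR rank 5482 (dm6, chr3R:19935241-19935341, plus strand): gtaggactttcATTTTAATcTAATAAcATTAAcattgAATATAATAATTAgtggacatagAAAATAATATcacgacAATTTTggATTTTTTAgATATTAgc
pros, at the start of the shorter transcripts, IDR rank 5623 (dm6, chr3R:11372704-11372787, plus strand): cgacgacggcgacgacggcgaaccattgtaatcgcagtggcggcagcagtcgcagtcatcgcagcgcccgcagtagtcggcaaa
The last of these is cut short where an untranslated region begins and stands apart from the rest: it has 0 such runs, and G and C make up 63.4% of the full 101-base window. The window at msi has 61 of 101 bases in such runs and one unbroken run of 22, and that at mira has 62 of 101.

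Of the 8 members, 5 had an IDR summit within 500 bp of an annotated start, against 35.6% of all protein-coding genes: insc, mira, pros, brat and msi. The 3 transcription factors of the neuroblast, dpn, ase and wor, had none there. These 3 genes are short and have 1 annotated start each, while msi and pros have 4, brat 3 and mira 2, so the members did not offer the same number of places. Of the members with a start summit, insc also has 1 start, shared with the gene sktl. The gene mira has 2 starts and, at 3.32 kb, is shorter than dpn at 3.36 kb. Whether length or the number of starts bears on these counts was not tested. With the body and 5 kb either side, 6 of 8 had an IDR summit, against 64.4% of protein-coding genes, a share near that background, and dpn and wor still had none. In the pooled list 7 of 8 had a summit at a start (49.2% of protein-coding genes), in replicate 1 6 of 8 (49.2%), in replicate 2 7 of 8 (50.7%) and in replicate 3 7 of 8 (51.8%). The member missing from every one of these lists was wor, and ase was missing from replicate 1.

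**Figure D1:**
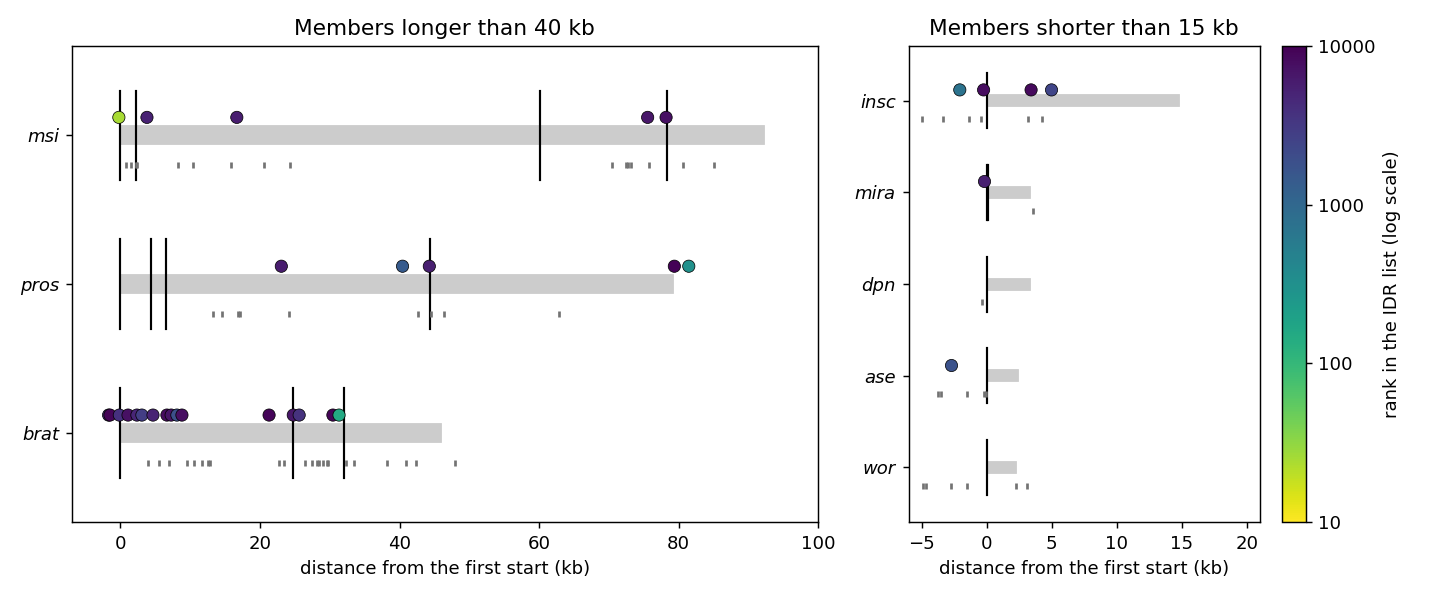
Summits at the 8 members along each gene, in kb from its first start (grey bar, gene body; black lines, annotated starts; circles, IDR summits coloured by rank on a log scale; small grey marks, summits of the pooled list only). There are 5 IDR summits each at msi and pros and 16 at brat, 9 of these from 160 bp before its first start to 8813 bp after it, and dpn and wor have pooled marks only.

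The start of dpn (2R, 8228971 to 8232330, minus strand) had no IDR summit. In the pooled list the summit nearest to its start lay 337 bp upstream with a signal of 66.7 and rank 22800 (−log10 q 0.587). The strongest summit within 500 bp of the start had rank 13948 in replicate 1 (445 bp upstream), 19220 in replicate 2 (338 bp upstream) and 22086 in replicate 3 (15 bp upstream). These strongest summits thus lay at 3 different positions, and only that of replicate 1 was above the median signal of its list (33.1 against 30.6). Replicate 2 also had a weaker summit 71 bp upstream, at rank 26767, within 100 bp of that of replicate 3. A stronger summit of replicate 1 lay in an intron, 1473 bp inside the gene, at rank 11265, and neither of the other replicates had a summit in the body away from the start. A list cannot show that the protein is absent, only that no stronger peak was listed.

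At ase (X, 460747 to 463176, plus strand) the IDR summit was not at the start but 2745 bp upstream of it, in an intron of the overlapping gene CG32816, with a signal of 907 and IDR rank 1754. It was found at almost the same rank in every replicate, 1765, 1775 and 1735 (mean 1758 ± 20.8, SD, n = 3), with signals of 235, 388 and 299.6 and summits at most 23 bp from the IDR summit. Of the annotated starts, that of ase was the nearest to it. Within 500 bp of the ase start itself the pooled list had 2 summits, of ranks 27157 and 27563, and the best replicate ranks were 19356 in replicate 2 and 25568 in replicate 3, with none in replicate 1. The upstream summit and the start of this gene therefore ranked far apart in the same lists.

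Around wor (2L, 15423297 to 15425580, minus strand) no list had a summit within 500 bp of the start. The pooled list had 6 summits in the gene or within 5 kb of it, with signals from 46.4 to 84.5 and ranks from 19085 to 29286. Replicates 1, 2 and 3 had 1, 3 and 3 summits in that region. The most repeated of them lay 3125 bp downstream of the start, beyond the end of the gene, at rank 15606 in replicate 2 and 23218 in replicate 3, and replicate 1 had one 3243 bp downstream at rank 24389.

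The polarity adaptor gene insc (2R, 20821262 to 20836028, minus strand) shares its region with sktl, which encodes a phosphatidylinositol phosphate kinase and starts at the same base. Its IDR start summit, 237 bp upstream of that base, is therefore at the same distance from both genes, and it was weak, with a signal of 258 and IDR rank 8014. Its ranks in the replicates were 9714, 5082 and 8491 (mean 7762 ± 2400.4, SD, n = 3). A stronger summit lay 2067 bp upstream of the start, inside an intron of the noncoding gene lncRNA:CR44667 and 600 bp from that gene's start. It had a signal of 1590 and IDR rank 719, with ranks of 730, 747 and 670 (mean 716 ± 40.5, SD, n = 3), so that it stood above the start summit in all 3 replicates. Within the body were 2 further IDR summits, both in introns of insc and of sktl, at 4984 bp (rank 2415; 2476, 2290 and 2685 in the replicates) and 3413 bp (rank 8433) from the insc start, the second of them 197 bp from another start of sktl.

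The cargo adaptor gene mira (3R, 19931799 to 19935120, minus strand) lies within Hs6st and had 1 IDR summit. It lay 171 bp upstream of the first start, with a signal of 372 and IDR rank 5482. Replicates 2 and 3 had a summit within 5 bp of it, at ranks 5451 and 4728 and signals of 163 and 150.1. Replicate 1 had none within 100 bp, and its summit at this start lay 326 bp upstream, at rank 7021. All 3 replicates thus listed a peak at the mira start, and the summit position differed in one of them.

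At pros (3R, 11328480 to 11407627, plus strand) CG2712 summits were at the start of the shorter transcripts, and those of the longer transcripts had almost none. The IDR summit lay 34 bp upstream of the start at 11372788, with a signal of 365 and IDR rank 5623. It ranked 9502, 5503 and 4112 in the replicates (mean 6372 ± 2798, SD, n = 3), lowest in replicate 1. By annotation this summit is in a coding exon of the longer transcripts, and it was the only one of the 32 in coding sequence. Within 500 bp of the 3 upstream starts, at 11328480, 11332878 and 11334980, neither the IDR nor the pooled list had a summit, and the replicates had 1 in all, at rank 19560 in replicate 1.

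The strongest summit inside pros lay in an intron, 3872 bp before the start of the shorter transcripts. Its signal was 1058 and its IDR rank 1400, with ranks of 1471, 1401 and 1407 (mean 1426 ± 38.8, SD, n = 3) and signals of 263, 459.9 and 343 in the replicates. A weaker intronic summit of rank 5901 lay in introns of the nested kinase genes KP78a and KP78b as well, 23059 bp from the first pros start. The 2 summits past the 3' end stood at starts of other genes. One of rank 308 (289, 353 and 301 in the replicates) lay 73 bp from mgr, with Irbp, which encodes a DNA end-binding protein, starting from the other side. One of rank 9599 lay 41 bp from the mitochondrial ribosomal protein gene mRpL40, and within 100 bp of it only replicate 1 had a summit (rank 16233).

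**Figure D2:**
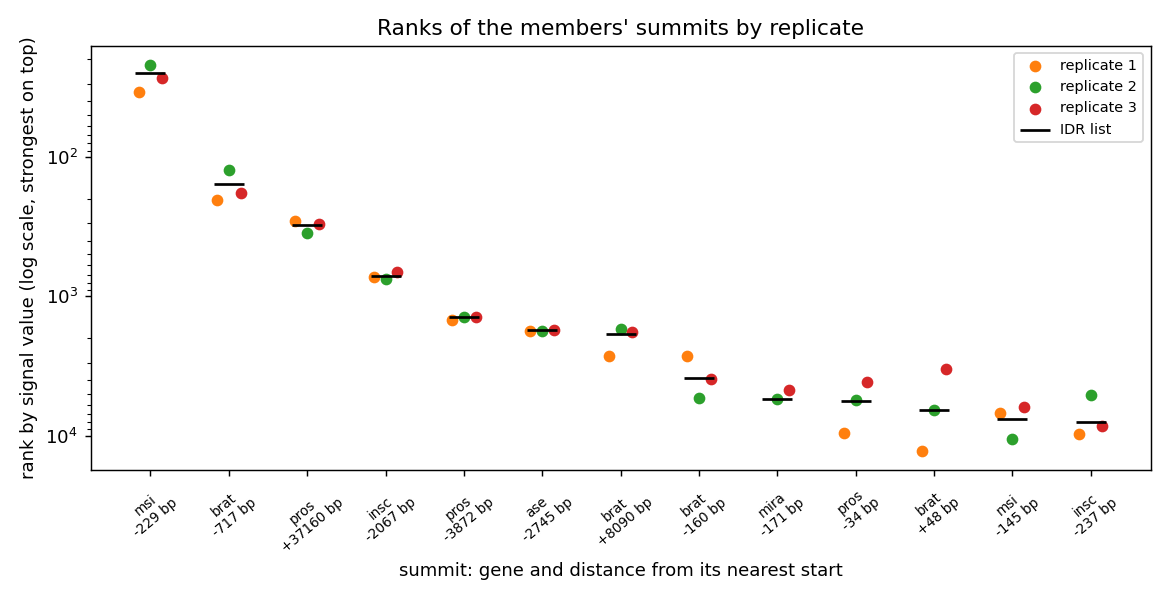
Rank by signal (log scale, strongest on top) of the 13 IDR summits that lay within 500 bp of a member's start or were among the 1957 strongest; points are the 3 replicates and black bars the IDR list, and labels give the gene and the distance from its nearest start in bp. From msi down to the upstream summit of ase the replicates lie close together, and they spread out among the weaker start summits; mira has no point for replicate 1.

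The translational repressor gene brat (2L, 19133816 to 19179758, plus strand) held 16 of the 32 IDR summits. In the same kind of region 25 of the 13968 protein-coding genes, brat included, had as many or more. Among the 475 protein-coding genes within 1.5 times its length the median was 3.00, and 8, brat included, had 16 or more. Per 10 kb of region brat had 2.86 IDR summits, against 0.989 for the members together, 0.598 for the members without brat and 0.796 over all protein-coding gene regions. The value of the members as a set therefore lay above that of all regions, and without brat below it. Neither difference was tested.

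Of the 16 IDR summits at brat, 9 lay near its first start, all in introns of brat or of an overlapping gene. They ran from 160 bp upstream to 8813 bp downstream of that start, at a median spacing of 1034 bp (606 to 1997). Their ranks ran from 1853, at 8090 bp, to 8225, at 6660 bp. The start summit, 160 bp upstream, had a signal of 504, IDR rank 3828 and ranks of 2696, 5316 and 3910 in the replicates (mean 3974 ± 1311, SD, n = 3). It lies in an intron of Polr1D, a gene for a shared subunit of RNA polymerases I and III that runs the opposite way across the brat start, and within 500 bp of a Polr1D start. The 2 summits further upstream, at 1702 and 1502 bp, lay between AsnRS, the asparaginyl-tRNA synthetase gene, and DCTN6-p27, a dynactin subunit gene, and within 500 bp of both.

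The strongest brat summit was deep inside the gene, 31334 bp from the first start and 717 bp before the third, which puts it outside the 500 bp set for a start. Its signal was 3334 and its IDR rank 156, with signals of 786, 1580 and 997 and ranks of 202, 124 and 182 in the replicates (mean 169 ± 40.5, SD, n = 3). The next strongest summit at brat had IDR rank 1853. The second start had a summit 48 bp inside it, 24772 bp from the first start and in the 5' untranslated region, at IDR rank 6563, and its ranks of 12839, 6550 and 3331 were among the most uneven of all. The third start had no IDR summit within 500 bp. It had 1 summit in the pooled list, 258 bp inside it at rank 13992, and 1 in each replicate, at ranks 18824, 22328 and 7818.

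The number at brat, and that at the members together, fell under stricter rules on repetition and on signal. When an IDR peak had to overlap one of the 9789 strongest peaks of both remaining replicates, brat kept 13 summits without replicate 1, 10 without replicate 2 and 13 without replicate 3, and 10 when all 3 replicates were used. Under the same rules the members together kept 26, 25 and 26 of 32 summits, and 23 with all 3 replicates. The share of protein-coding genes with a start summit, a different measure, fell from 35.6% to 29.6%, 28.8% and 27.9%, and to 26.4% with all 3. The share of all IDR peaks kept under these rules was not computed, so the losses cannot be called particular to the members. Among the 4894 strongest of the 9789 IDR peaks, a cut on signal and not on repetition, brat kept 6 and the members together 12. In that shorter list 20.6% of protein-coding genes had a start summit.

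**Figure D3:**
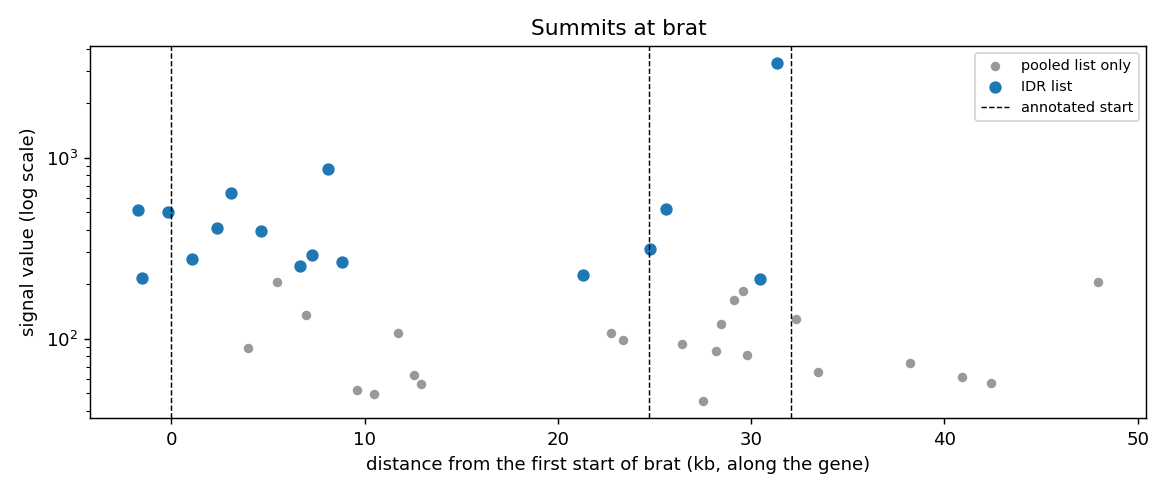
Signal (log scale) of the summits at brat against the distance in kb from its first start, in the IDR list (blue) and in the pooled list only (grey), with the 3 annotated starts as dashed lines. The 9 IDR summits of the first 10 kb form a row of moderate signal, and the highest point, at 3334, stands just before the third start.

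The RNA-binding protein gene msi (3R, 25516118 to 25608423, plus strand) had the strongest summit of all members. It lay 229 bp upstream of the first start, with no start of another gene within 500 bp, at a signal of 6721 and IDR rank 25. Replicates 1, 2 and 3 gave signals of 1566, 2985 and 2165 and ranks of 34, 22 and 27 (mean 27.7 ± 6.03, SD, n = 3), with summits within 9 bp of the IDR summit. The other 4 IDR summits of msi ranked between 5363 and 7514. They lay in introns at 3798, 16680, 75571 and 78212 bp from the first start, the last of them 145 bp before the start at 25594475. The last 2 also overlap ymp, which runs the opposite way (one in its 3' untranslated region, one in an intron). The start at 25518323 had no IDR summit. Its pooled summits ranked 20304 and 21016, and its best replicate ranks were 24104 in replicate 2 and 15329 in replicate 3, with none in replicate 1. The start at 25576278 had none in any list. Of the 5539 other protein-coding genes with a start summit in all 3 replicates, those closest to msi in their 3 ranks were CG1888 (27, 25 and 26), PNPase (29, 26 and 32), which encodes a polynucleotide phosphorylase, and Tina-1 (36, 31 and 31), at distances of 0.38, 0.41 and 0.54 on the log2 rank scale.

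Over all members, 8 of the 17 annotated starts had an IDR summit within 500 bp, against 32.8% of the 19630 annotated starts of protein-coding genes, with 1 summit serving both starts of mira. Of the 32 IDR summits, 7 were at a start, 19 in a body and 6 in the 5 kb beyond. Median ranks were 5623 at starts (25 to 8014), 5678 in bodies (156 to 9384) and 2750.0 beyond (308 to 9599), with ranges that overlap almost wholly. A start of any gene, the member's own included, lay within 500 bp of 14 of the 32 (43.8%), against 46.1% of all IDR summits. The start of another gene lay within 500 bp of 9 of the 32, and for 13 the member itself had the nearest start of any gene. In 24 cases the summit lay in an intron of a member or of another gene. For the counts of 9, 13 and 24 the share over all IDR summits was not computed. They cannot be called particular to the members.

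The stronger summits of the members kept their rank between replicates better than the weaker ones. Of the 7 summits among the 1957 strongest of the IDR list, all 7 were found within 100 bp in every replicate, and the highest rank was 1.02 to 1.63 times the lowest (median 1.22). Of the other 25, 19 were found within 100 bp in every replicate, with a ratio of 1.07 to 4.45 (median 1.78). These ratios were not computed for the same split of all IDR peaks, so the difference cannot be called particular to the members. In all, 26 of 32 (81.2%, exact 95% interval 63.6 to 92.8) had a summit within 100 bp in all 3 replicates, against 83.6% of all IDR summits, and 31 of 32 intervals (96.9%, 83.8 to 99.9) overlapped a peak in all 3, against 92.7%. These intervals cover counting error only. The IDR list was made from the same replicates, so this recovery is a description. The median distance of a replicate summit from the IDR summit was 16.0 bp at the members and 14.0 bp over the whole list.

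Genes that work with the members in the same process were read in the same way, 41 genes in 6 groups by role. Of these, 21 (51.2%) had an IDR summit within 500 bp of a start, against the 35.6% of all protein-coding genes. Among apical polarity and spindle genes 8 of 11 did, led by par-6 (signal 1165, rank 1223), scrib (622, rank 2895), mud (605, rank 3004), which encodes a partner of the spindle machinery, and aPKC (559, rank 3355), the kinase of the Par complex. Basal cargo and mitotic kinase genes had one in 5 of 5, with the Notch inhibitor gene numb the strongest (2863, rank 215; 291, 167 and 257 in the replicates), then the kinase gene aurA (1048, rank 1422), stau (448, rank 4419), which encodes an RNA-binding cargo of Miranda, and the kinase gene polo (408, rank 4944). RNA regulators had one in 3 of 4: Imp (1169.9, rank 1216), pum (625, rank 2872), whose protein acts with Brat on messenger RNAs, and mei-P26 (271, rank 7657), a relative of brat.

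The counts at transcription factor genes of neuroblasts differed between the lists. Proneural and neuroblast factors had an IDR start summit in 3 of 12, all weak: the Snail family gene esg (278, rank 7471), the Sox gene SoxN (269.7, rank 7691) and the zinc finger gene klu (227, rank 8983). Neither the achaete-scute complex genes ac, sc and l(1)sc nor the Snail family gene sna had one. The temporal series, the factors that neuroblasts express in order, had 1 of 6, grh (763, rank 2249), with none at hb, Kr, nub, pdm2 or cas. These IDR shares are below the 35.6% of all protein-coding genes, as is the 0 of 3 of dpn, ase and wor. In the pooled list, which goes further down in signal, 9 of the 12 proneural and neuroblast factors and 3 of the 6 temporal genes had a start summit, against 49.2% of protein-coding genes, and so did dpn and ase. With the body and 5 kb either side, 8 of the 12 and 1 of the 6 had an IDR summit, against 64.4%. The position of the first group, of the temporal series and of dpn, ase and wor against the background thus depended on the list. The groups are small and the differences between them were not tested. Of the genes of daughter cells 1 of 3 had an IDR start summit, against 35.6% of protein-coding genes: the neuronal gene elav (4342, rank 80). The glial genes repo and gcm had none at a start in that list. In the pooled list 3 of 3 had a start summit (49.2% of protein-coding genes). With the body and 5 kb either side, 3 of 3 had an IDR summit (64.4%).

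**Figure D4:**
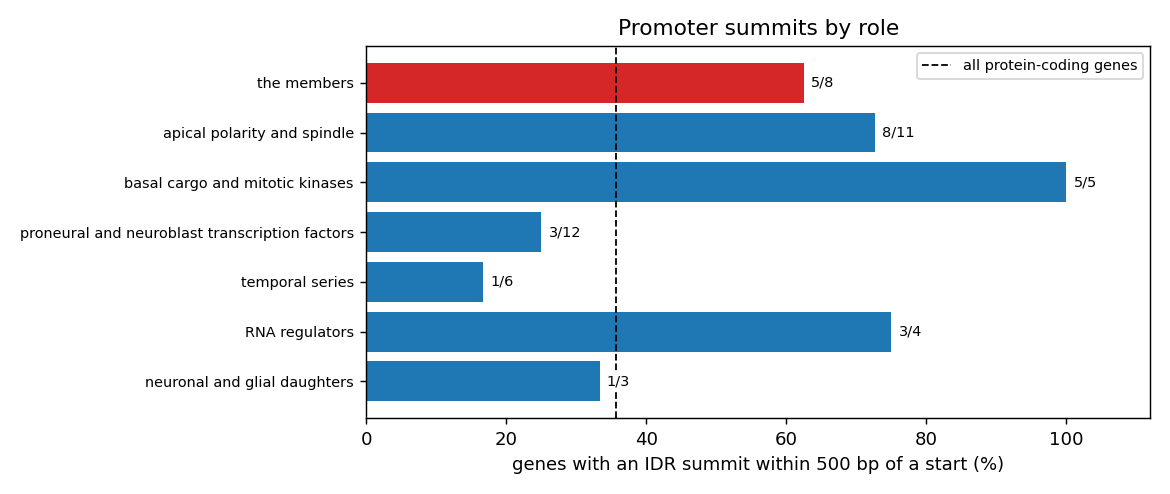
Share of genes with an IDR summit within 500 bp of a start, in percent, for the 8 members (red) and 6 groups of related genes (blue), with the count at each bar; the dashed line is the 35.6% of all protein-coding genes. The transcription factor groups (3 of 12 and 1 of 6) lie left of the line, though in the pooled list they have 9 of 12 and 3 of 6, and cargo, polarity and RNA regulator genes to its right.

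The A- and T-rich centres printed above were a general feature of these summits. Within 50 bp of the summit the median G and C content was 28.7% at the 32 member summits (16.8 to 63.4), against 45.0% in windows of the same length 300 bp to either side, and the summit was the lower in 26 of 32 (81.2%). Over all 9789 IDR summits the values were 30.7% and 44.1%, with the summit lower in 79.5%, so the members did as the list as a whole. At the 7 member summits among the 1957 strongest, the median was 24.8% against 49.5% beside them, lower in 7 of 7. Runs of 5 or more A or T bases took a median of 54.5% of these 7 windows and 6.44% of their flanks. Over all 1957 such peaks the corresponding values were 27.7%, 45.5%, 92.5% lower, 41.6% and 15.8%. At msi, G and C made up 16.8% of the summit window and 48.5% of its flanks. At the exonic pros summit they made up 63.4% and 57.4%.

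**Figure D5:**
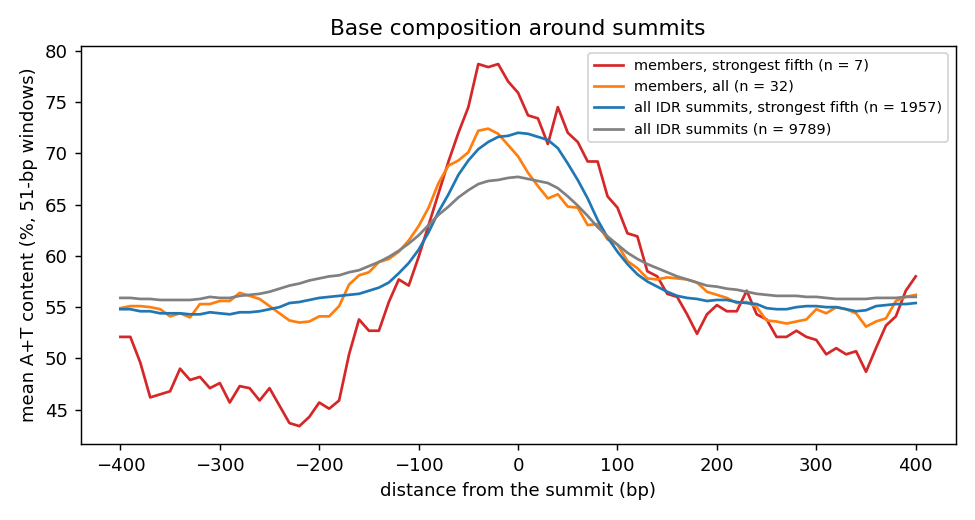
Mean A and T content (percent, in sliding windows of 51 bases) against distance from the summit in bp, for member summits and all IDR summits, each also for the 1957 strongest. All 4 lines rise at the summit, highest for the 7 strong member summits, at 78.7% 20 bp before it against 45.7% 200 bp before it.

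Of 8 short sequences known from other factors, 3 were found at the members. On either strand within 50 bp of the summit, GAGAG, bound by GAGA factor, was in 5 of 32 windows at brat and msi (15.6%; 8.88% of all IDR windows, and 14.6% of all windows 300 bp to either side). CGATA, the core bound by BEAF-32, was in 5 at brat and pros (15.6%; 16.8% and 11.6%). The palindrome TATCGATA, bound by DREF, contains CGATA and was in 1, between AsnRS and DCTN6-p27 (3.12%; 2.57% and 0.444%). In the members' own side windows GAGAG was in 11 of 64 (17.2%), CGATA in 9 of 64 (14.1%) and TATCGATA in 0 of 64. The other 5 sequences searched were in 0 of 32. These were GGTCACACT (1.23% of all IDR windows and 0.291% of all side windows), CAGGTAG (0.347% and 0.613%), the E-boxes CAGCTG (3.44% and 4.58%) and CACGTG (0.684% and 1.34%), and CACACACA (1.24% and 4.06%). Of the 5 sequences of 8 bases most concentrated at IDR summits outside the members, 4 overlap in TATCG or ATCGA (ATCGATAG, ACTATCGA, AACTATCG and TATCGATA) and the fifth is AATCTATA. Only TATCGATA was found at a member. They occurred at 1.23% to 2.58% of all IDR windows and 0.240% to 0.444% of all side windows. These matches are a description of the letters in these windows only.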

How the data were processed

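Whole embryos of 1 group were assayed by ChIP-seq in 3 biological replicates. Per the text deposited with the lists, the authors called peaks in each replicate, and in the pooled replicates, against 1 control file on build dm6, and derived the IDR list from these. Neither the caller nor the aligner nor a threshold is named in those texts. The deposited signal value is the authors' enrichment per peak, with scaling by depth not stated, and the deposited −log10 q reached a ceiling of 4.34 in the pooled list, so peaks were ranked by signal. The IDR list equalled the 9789 strongest pooled peaks. Replicate and pooled lists end at 30000 peaks, the lowest with a −log10 q of 0.0776 to 0.458.

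Summits (1-based) were placed with Ensembl release 115 and bases read from RefSeq's copy of the same assembly. Replicate summits were matched within 100 bp. No p was computed: members are set beside all protein-coding genes, and gene counts carry no test because the members and lists were chosen with earlier results of these data known. Genes named were the members, genes that overlap their summits or start near them, up to 4 per role group by signal, and the 3 nearest to msi in ranks. Related genes with no start summit were named after their values were seen. The runs of A and T, and the split at the 1957 strongest peaks, were chosen after seeing the data. Alternatives were stronger or better repeated peaks, each replicate left out, other windows, starts, regions and overlap rules. Counting was checked on planted summits. No bases from chromosome arm 2R are printed. Python 3.11.15 was used with matplotlib 3.10.9, SciPy 1.17.1, pandas 2.3.3 and NumPy 2.4.6.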

Additional observations from a re-analysis of the deposited data

How the results depend on the processing

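The 5 members with an IDR start summit were the same under windows of 250 bp (30.1% of protein-coding genes) and 1000 bp (39.5%). The same 5 had one in IDR peaks that overlap the strongest peaks of every replicate (26.4%). They were also the same when replicate 1, 2 or 3 was left out of that overlap rule (5 to 5). With the 5'-most start alone pros dropped out, and 33.3% of protein-coding genes had a start summit. Among the 4894 strongest IDR peaks 2 members (brat and msi) and 12 of the 41 related genes had a start summit, against 20.6% of protein-coding genes (35.6% in the whole IDR list), and 12 summits lay at the members. In the whole pooled list these counts were 7, 33 and 99, against 49.2% of protein-coding genes. No list was remade without a replicate. Instead, IDR peaks were kept if they overlapped the 9789 strongest peaks of both remaining replicates. This rule left 14 to 17 related genes (21 in the IDR list), 27.9% to 29.6% of protein-coding genes and 25 to 26 summits at the members (32). With all 3 replicates it left 14, 26.4% and 23. In the full lists of the remaining replicates 31 to 31 summits were found again (31 in all 3). In all 3 full lists the count fell to 18 when 50% of both intervals had to overlap. The cause of these changes was not tested, beyond the shorter or longer list that each rule leaves. No paired analysis was possible because there is 1 group. Depth is unknown. The pooled summits at the starts of dpn and ase and around wor had a −log10 q of 0.278 to 0.967. The absence of dpn, wor and the ase start from the IDR list therefore sets no limit on binding there.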
